A study of Drosophila melanogaster with 13 samples.

Results

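The sodium pump and calcium extrusion genes are 7 genes chosen by symbol from the 17737 genes of a count table: Atpalpha, nrv1, nrv2, nrv3, SERCA, PMCA and Calx. All 7 had a row in the table. Reads per gene were counted in 13 libraries of GFP-labelled neurons that were picked by hand from protease-treated brains of the fruit fly Drosophila melanogaster. The TRH-Gal4 group held 4 pools of neurons labelled through a driver named for tryptophan hydroxylase, the serotonin-synthesis enzyme, from brains that were acutely dissociated. The sNPFR-Gal4 samples, labelled through a driver named for the short neuropeptide F receptor, were 1 pool and 8 single neurons from brains that were pinned. All libraries shared the GFP label, the SMART-Seq v4 cDNA kit and the Nextera XT library kit, with 12 PCR cycles for pools of 15 to 60 cells and 17 for single cells. Age, sex and strain are not given in the labels. Pools and cells are named here by the numbers in their labels, which do not say whether a pool's number is its count of cells.

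The sodium pump uses ATP to move sodium out of the cell and potassium in, and so maintains the gradients that carry action potentials. Its alpha subunit is the enzyme, and a beta subunit is needed for the enzyme to fold and reach the membrane. Calcium that enters a neuron during firing is pumped into the endoplasmic reticulum by SERCA, pumped out across the plasma membrane by PMCA, and exchanged for sodium by Calx, which draws on the gradient the sodium pump makes. In the fly, beta subunits are made from the nervana genes nrv1, nrv2 and nrv3. nrv2 is widely used to mark glia, and the pump is also a part of the septate junctions of glia and epithelia.

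Depth ran from 8.72 to 15.6 M reads in the TRH pools, was 56.1 M reads in the sNPFR pool, and ran from 3.38 to 68.0 M reads in the single cells. TRH pools held 5119 to 5686 genes at 10 CPM or more, against 2798 in the sNPFR pool and 784 to 1896 in single cells (CPM, a gene's reads scaled to a common library size of 1 M). The labels name no animals, so the single cells were not treated as replicates. Tests across all genes compared the 4 TRH pools with 2 units of sNPFR-Gal4: its pool, and the reads of its 8 cells added together. The p-values measure only how these samples spread, which may be technical. Cell 7 gave 52.7% of the summed cell reads. Dissociated and pinned brains cannot be told apart from the drivers. All 10 markers of a neuron panel had reads in every group. Summed, they reached 16881 to 21256 CPM over the TRH pools and 18251 CPM for the sNPFR pool. Over the single cells the sum was 15849 to 22180 CPM. The markers were uneven: elav averaged 261.1 CPM in the TRH pools, stood at 1.37 CPM in the sNPFR pool and reached 10 CPM in 4 of 8 cells. Panels of 8 muscle and 4 fat body markers summed to at most 23.5 and 50.7 CPM in a TRH pool, 5.92 and 39.3 CPM in the sNPFR pool and 156.7 and 53.4 CPM in a cell. Intervals and limits from read counts cover counting error only, because PCR copies cannot be told from separate molecules.

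2 of the 7 genes differed between the drivers at an adjusted p under 0.05, in opposite directions. Atpalpha was lower in the TRH pools than in the sNPFR units, and nrv1 was found in the TRH pools but had no read in any sNPFR library. The other 5, nrv2, nrv3, SERCA, PMCA and Calx, did not pass. Of 7426 genes tested, 13.6% passed, 10.6% higher in TRH and 3.03% higher in sNPFR. Of the calls, 77.7% were higher in TRH, against 67.2% with singleton-pairing scaling and 87.9% when only library totals were used. Over all tested genes the median log2 fold change was 0.67 (TRH over sNPFR, TMM scaling), and it ranged from 0.41 to 1.28 over the scalings tried. The median of the 7 members was -0.03. Both medians were the same with genes at 0 reads in both sNPFR units set at a limit of 3 reads. Those genes stay above both medians at that limit, so this could not have moved them and does not test their steadiness.

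**Figure D1:**
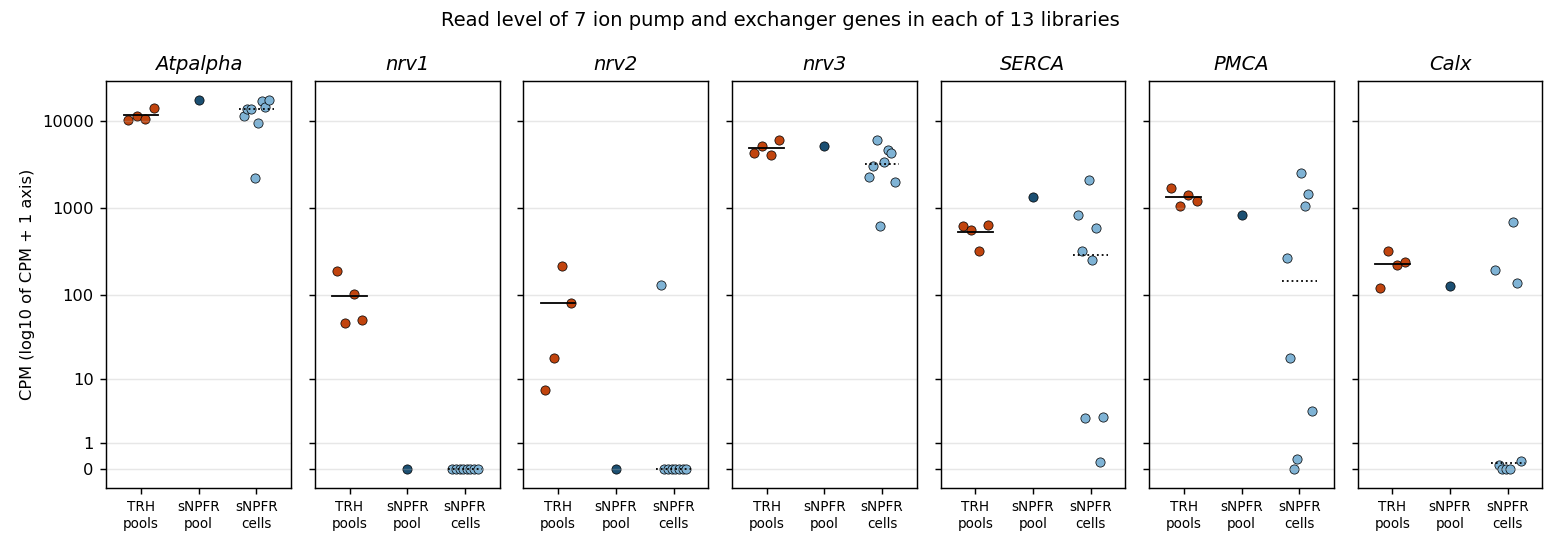
Level of each of the 7 genes in each library, in CPM on a log10(CPM + 1) axis. Red points are the 4 TRH pools with their mean as a line, the dark blue point is the sNPFR pool, and light blue points are the 8 single sNPFR cells with their median as a dotted line. Atpalpha and nrv3 were present in every library, nrv1 lay at 0 in every sNPFR library, and SERCA, PMCA and Calx ran from at or near 0 to their highest levels among the cells.

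Atpalpha (FBgn0002921, chromosome 3R, 20948714 to 20976239, plus strand, BDGP6), the gene of the catalytic alpha subunit, was among the most abundant transcripts of every pool. It stood at 10399, 11612, 10761 and 14141 CPM in TRH pools 40, 45, 60 and 57, against 17883 CPM in the sNPFR pool, while the summed cells had 14211 CPM. Every TRH pool lay below both sNPFR units, although pool 57 was close to the summed cells. Such a separation towards sNPFR was seen for 8.11% of all tested genes. The log2 fold change was -0.94 ± 0.19 (approximate standard error, worked back from the test statistic), and the adjusted p was 0.0266 by edgeR's quasi-likelihood test. In a bulk pool, fewer cells that express a gene and less RNA per cell cannot be told apart. The call depended on the scaling: with library totals only the log2 fold change was -0.45 and the adjusted p was 0.126 by edgeR. 10 of the 23 alternative settings ended it, including the omission of TRH pool 45, 60 or 57, and the fold change was negative in all 23. Relative to the median of all tested genes it was -1.61 in the main scaling and -1.68 to -1.73 in the other 3 scalings. Other gene panels also lay below that median. The median log2 fold change was -0.22 for 9 reference genes, 3 of them positive, and -0.23 for 10 neuron markers, 2 of them positive. Among those markers only futsch was called, lower in TRH like Atpalpha (-1.26 ± 0.23, adjusted p = 0.0222, edgeR).

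Among the single cells Atpalpha ranged from 2264 CPM in cell 4 through a median of 13951 CPM to 17609 CPM in cell 10. All 8 cells held it at 10 CPM or more. Cell 4 stood apart below, and the next lowest was cell 5 with 9539 CPM. Cell 4 was also the shallowest library, at 3.38 M reads. Its neuron markers summed to 20184 CPM, but brp alone gave 10717.5 CPM of that, its highest level among the cells. Another of the markers, cpx, was at its lowest there, at 809.0 CPM, so the sum does not show that the panel was even. Per kilobase of exon, Atpalpha ranked 10th to 13th of all genes in the TRH pools and 6th in the sNPFR pool, and it ranked 4th in cells 2, 6 and 7 but 224th in cell 4.

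The leading beta subunit gene of every library was nrv3 (FBgn0032946, chromosome 2L, 21380000 to 21393319, plus strand). It stood at 4318, 5162, 4143 and 6066 CPM in TRH pools 40, 45, 60 and 57, against 5272 CPM in the sNPFR pool, while the summed cells had 3672 CPM. The groups overlapped, since the sNPFR pool lay above 3 TRH pools and the summed cells lay below all 4. The log2 fold change was -0.34 ± 0.25 (adjusted p = 0.379, edgeR), and its sign turned with library totals only (0.14, adjusted p = 0.737, edgeR). All 8 cells held nrv3 at 10 CPM or more, from 625.6 CPM in cell 4 through a median of 3268 CPM to 6062 CPM in cell 3. Cell 4 was the lowest of the cells for both abundant pump subunits.

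nrv1 (FBgn0015776, chromosome 2L, 6778555 to 6786861, minus strand), another beta subunit gene, stood at 189.3, 47.3, 102.3 and 51.3 CPM in TRH pools 40, 45, 60 and 57. It had 0 reads in the sNPFR pool, which allows up to 0.0535 CPM, and 0 reads in each of the 8 cells. The TRH mean of 97.6 ± 66.1 CPM (SD, n = 4) was at least 1825-fold higher than the limit of 3 reads in the sNPFR pool, and the lowest TRH pool at least 885-fold. The adjusted p was 0.0204 by edgeR, and 10.6% of all tested genes were called in this direction. The call was lost without TRH pool 45, 60 or 57 (adjusted p of 0.0655, 0.0748 and 0.0825 by edgeR) and was kept in the other 20 of 23 settings. A fitted fold change depends on the prior count when 1 group is at 0, so the bound stands in its place. The sNPFR libraries held fewer genes at 10 CPM than the TRH pools, as listed above, and 1700 of the 7426 tested genes had 0 reads in both sNPFR units. Markers of hemocytes, the fly's blood cells, also lay higher in TRH: the 6 markers summed to 164.7 to 417.6 CPM in the TRH pools, to 0 in the sNPFR pool and to at most 0.313 CPM in a cell. Pxn made up most of that sum, at 251.6 ± 115.4 CPM (SD, n = 4), and NimC1 had 0 reads in every library. The number of cells in each pool is not stated, and if the pool names give it, the sNPFR pool held fewer cells than any TRH pool. The part of these differences in the nrv1 result was not tested.

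nrv2 (FBgn0015777, chromosome 2L, 6789770 to 6798862, minus strand) lies 2.91 kb from nrv1 on the same strand. It was the most uneven of the 7 genes among the TRH pools, at 7.11, 18.3, 218.7 and 81.3 CPM in pools 40, 45, 60 and 57, a range of 30.8-fold. The sNPFR pool had 0 reads of it, so the TRH mean of 81.4 ± 97.2 CPM (SD, n = 4) was at least 1522-fold higher than the limit of 3 reads in that pool. Among the single cells only cell 1 held it, with 1166 reads or 129.7 CPM, and the other 7 had 0 reads. With that cell in the sum, nrv2 did not pass (log2 fold change 3.41 ± 2.74, adjusted p = 0.418, edgeR), and without it nrv2 passed as higher in TRH (adjusted p = 0.0288, edgeR). Cell 1 was the only sNPFR library with the gene, so leaving it out decides the result, and no direction is given.

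Because nrv2 also marks glia, the glia panel of 9 other markers was read beside it. The panel summed to 85.5, 175.1, 377.7 and 171.4 CPM in TRH pools 40, 45, 60 and 57, so pool 60 was highest and pool 40 lowest for both nrv2 and the panel. The sNPFR pool held the largest glia sum, 1634 CPM, mostly Eaat1 at 1105 CPM and alrm at 323.2 CPM, yet it had 0 reads of nrv2. Of the 9 markers, repo, moody, wrapper and Gat were at 0 reads in that pool. In cell 1, the only nrv2-positive cell, the glia panel summed to 4.56 CPM with 1 of 9 markers detected. wrapper had 0 reads in every TRH pool, and repo averaged 0.810 ± 1.62 CPM there (SD, n = 4). The part of glial RNA in the nrv2 level of the TRH pools was not tested.

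The balance between the subunits was read as a ratio within each library, which does not depend on scaling between libraries. Levels of different genes were compared per kilobase of merged exon, 6.68 kb for Atpalpha, 4.77 kb for nrv3, 3.57 kb for nrv2 and 2.195 kb for nrv1. Atpalpha stood at 1.57, 1.57, 1.65 and 1.61 times the summed level of the 3 nrv genes in TRH pools 40, 45, 60 and 57. The ratio was 2.42 in the sNPFR pool and 2.75 in the summed cells. The mean of the TRH pools was 1.60 ± 0.0394 (SD, n = 4), and both sNPFR units lay above all 4 pools. The mean log2 ratio was 0.68 ± 0.04 in TRH (SD, n = 4) and 1.37 in sNPFR, a difference of -0.69. Over the 15 arrangements of 4 against 2 samples, the two-sided exact permutation p was 0.0667, the smallest this design allows, and 0.222 after adjustment over the 5 ratios and shares tested. The direction was the same in all 16 alternative settings.

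Among single cells the same ratio ranged from 1.64 in cell 3 through a median of 2.63 to 6.29 in cell 10. All but cell 3 lay above the highest TRH pool by more than the spread of the TRH pools, and cell 3 lay between TRH pools 57 and 60. Cell 10 reached its ratio with the highest Atpalpha level of the cells, 17609 CPM, together with 1999.6 CPM of nrv3. Cell 10 also held 966 genes at 10 CPM or more and a glia panel sum of 528.7 CPM, the highest of the cells. Tret1-1 gave 472.1 CPM of that sum and Gs2 gave 53.2 CPM. Each other marker of the panel was at or below the 2.08 CPM of Eaat1, with repo at 0.104 CPM. The part of the gene number or the glia sum in the ratio of cell 10 was not tested.

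nrv3 made up 91.1%, 97.6%, 88.95% and 96.5% of the summed nrv level per kilobase in TRH pools 40, 45, 60 and 57. It made up 100% in the sNPFR pool and 99.7% in the summed cells. By reads, the nrv3 share was lowest in TRH pool 60, at 92.8% of 42721 nrv reads (exact Clopper-Pearson 95% interval 92.56% to 93.05%). The remainder differed between TRH pools: in pool 40 it was nearly all nrv1, at 8.68% against 0.2005% for nrv2, while in pool 60 nrv2 led, at 6.28% against 4.77% for nrv1. Among the cells, cell 1 had 93.0% nrv3 and 7.03% nrv2, and the other 7 cells had nrv3 alone. The mean nrv3 share was 93.5 ± 4.17% in TRH (SD, n = 4) and 99.8% in sNPFR, and the exact permutation p was 0.133, or 0.222 adjusted over the 5. The nrv1 and nrv2 shares gave adjusted exact permutation p-values of 0.222 and 0.583.

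**Figure D2:**
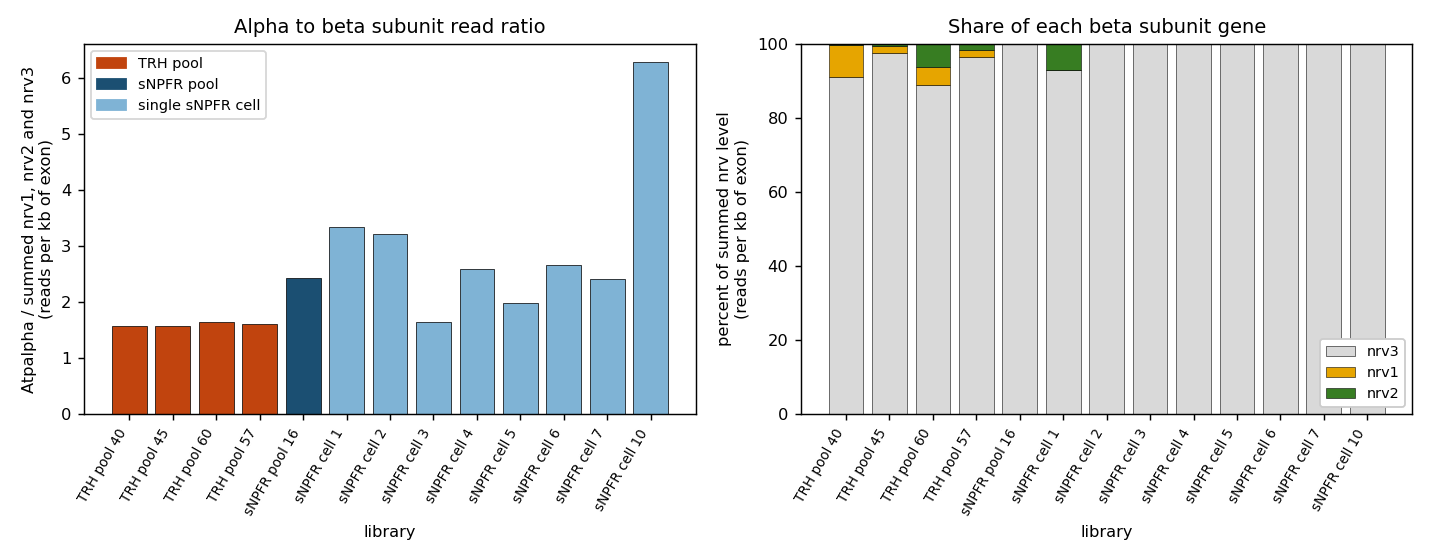
Left, ratio of Atpalpha to the summed nrv genes in reads per kilobase of exon for each library, with TRH pools in red, the sNPFR pool in dark blue and single sNPFR cells in light blue. Right, percent of the summed nrv level held by nrv3, nrv1 and nrv2 in each library. The TRH pools sit at 1.57 to 1.65 on the left, below the sNPFR pool at 2.42, and nrv1 appears on the right in the TRH pools alone.

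SERCA (FBgn0263006, chromosome 2R, 23925077 to 23935884, minus strand), the pump of the endoplasmic reticulum, stood at 622.8, 561.4, 325.8 and 638.9 CPM in TRH pools 40, 45, 60 and 57. The sNPFR pool had 1359 CPM, above every TRH pool, but the summed cells had 187.9 CPM, below every TRH pool. The 2 sNPFR units therefore disagreed, and the log2 fold change of -0.87 ± 0.65 did not pass (adjusted p = 0.385, edgeR). Against the sNPFR pool alone it was -1.64 (adjusted p = 0.0259, edgeR), and against the summed cells alone it was 0.69 (adjusted p = 0.359, edgeR). Cell 7, the deepest of the summed cells, had 15 SERCA reads or 0.221 CPM. With the cells at equal weight the log2 fold change was -0.96 (adjusted p = 0.216, edgeR). SERCA shares 1325 bases of exon with CG2812 on the opposite strand, a gene that had 0 reads in every library.

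PMCA (FBgn0259214, chromosome 4, 328193 to 358917, minus strand), the calcium pump of the plasma membrane, stood at 1709, 1075, 1416 and 1230 CPM in TRH pools 40, 45, 60 and 57. The sNPFR pool had 838.5 CPM, and the summed cells had 1042 CPM. On the CPM scale every TRH pool lay above both sNPFR units, as for 27.3% of all tested genes. After TMM scaling the log2 fold change was -0.03 ± 0.31 (adjusted p = 0.959, edgeR), and with library totals only it was 0.53 (adjusted p = 0.233, edgeR), so no direction is read. PMCA shares 3107 bases of exon with CG32850 on the opposite strand, 40.5% of its merged exon. CG32850 itself reached at most 51.2 CPM in a TRH pool and 182.2 CPM in a cell, and had 41.1 CPM in the sNPFR pool. Strand use in counting is not stated, so reads from the shared stretch cannot be told apart.

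Calx (FBgn0013995, chromosome 3R, 20978183 to 21015613, plus strand), the sodium/calcium exchanger, begins 1.94 kb after the end of Atpalpha on the same strand. It stood at 120.7, 322.5, 221.0 and 240.8 CPM in TRH pools 40, 45, 60 and 57, against 126.3 CPM in the sNPFR pool, while the summed cells had 128.5 CPM. TRH pool 40 lay below both sNPFR units and the other 3 lay above. The log2 fold change was 0.33 ± 0.63 (adjusted p = 0.760, edgeR), and its sign held in all 23 alternative settings, where it ran from 0.0015 to 0.83 with adjusted p-values of 0.378 to 0.998 (edgeR, DESeq2 or limma). Relative to the median of all tested genes Calx was -0.34 in the main scaling and -0.40 to -0.45 in the other 3. Atpalpha, nrv3, SERCA and PMCA lay on the same side.

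**Figure D3:**
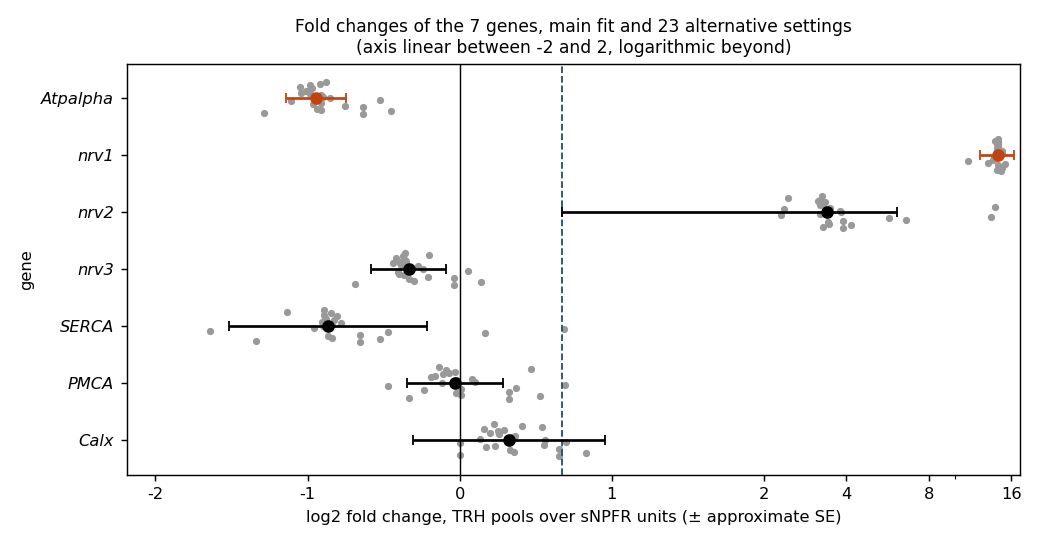
Log2 fold change of each gene, TRH pools over sNPFR units, with an approximate standard error as the bar. Red points passed an adjusted p of 0.05, black points did not, and grey points are the 23 alternative settings. The dashed line marks the median of all tested genes, 0.67, and the axis is logarithmic beyond -2 and 2. The fitted value of nrv1 depends on the prior count. Atpalpha is left of 0 in every setting, and PMCA falls on both sides.

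Single cells differed in which calcium transport genes they held. At 10 CPM or more, SERCA was present in 5 of 8 cells, PMCA in 5 of 8 and Calx in 3 of 8. Cells 1 and 6 held all 3 genes. Cells 2 and 5 held SERCA and PMCA, cell 7 held PMCA and Calx, cell 4 held SERCA alone, and cells 3 and 10 held none of them. Raising or lowering the threshold moved PMCA to 6 cells at 1 CPM and 4 at 50 CPM, and SERCA to 7 cells at 1 CPM.

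SERCA reached 2096 CPM in cell 4, which had 1 PMCA read and 0 Calx reads. Cell 7 was the reverse, with PMCA at 1472 CPM and Calx at 138.4 CPM against 0.221 CPM of SERCA. PMCA was highest in cell 5, at 2523 CPM, where Calx had 0 reads. Calx was highest in cell 6, at 691.3 CPM, together with 596.1 CPM of SERCA and 1069 CPM of PMCA. Cell 3 had 0 reads of PMCA and of Calx and 13 of SERCA. Cell 10 had 57 SERCA, 71 PMCA and 5 Calx reads among its 19.2 M reads.

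How many cells reached 10 CPM was set against all genes of like level in the sNPFR pool. Of 431 genes at 500 to 2000 CPM in the sNPFR pool, the range that holds SERCA and PMCA, the median gene reached 10 CPM in 5 of 8 cells and 18.3% reached it in all 8. SERCA and PMCA, at 5 cells each, were therefore at that median. Of 52 genes at 2000 CPM or more there, the range of Atpalpha and nrv3, 86.5% were in all 8 cells. Of 1475 genes at 100 to 500 CPM, the range of Calx, the median was 2 cells. Cells 3 and 10, in which all 3 calcium transport genes were under 10 CPM, held 868 and 966 genes at 10 CPM or more, and cells 1 and 6 held 1875 and 1651. Cell 4 held 784. The part of these gene numbers in the patterns of single cells was not tested.

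The balance of surface extrusion to store uptake was read as PMCA plus Calx over SERCA, per kilobase of exon. It was 3.14, 2.59, 5.31 and 2.42 in TRH pools 40, 45, 60 and 57, and 0.751 in the sNPFR pool. The summed cells gave 6.61, so the sNPFR units lay on both sides of the TRH pools. That summed value leaned on cell 7, which gave 74.4% of the PMCA reads of the cells and 15 of their 24247 SERCA reads. The position of the summed cells above the TRH pools is therefore not read as a trait of the sNPFR cells. The exact permutation p was 0.733 before and after adjustment over the 5 ratios and shares. Per cell the ratio ran from 0 in cell 3 to 7771 in cell 7, both of them cells with few or no reads on a side of the ratio.

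**Figure D4:**
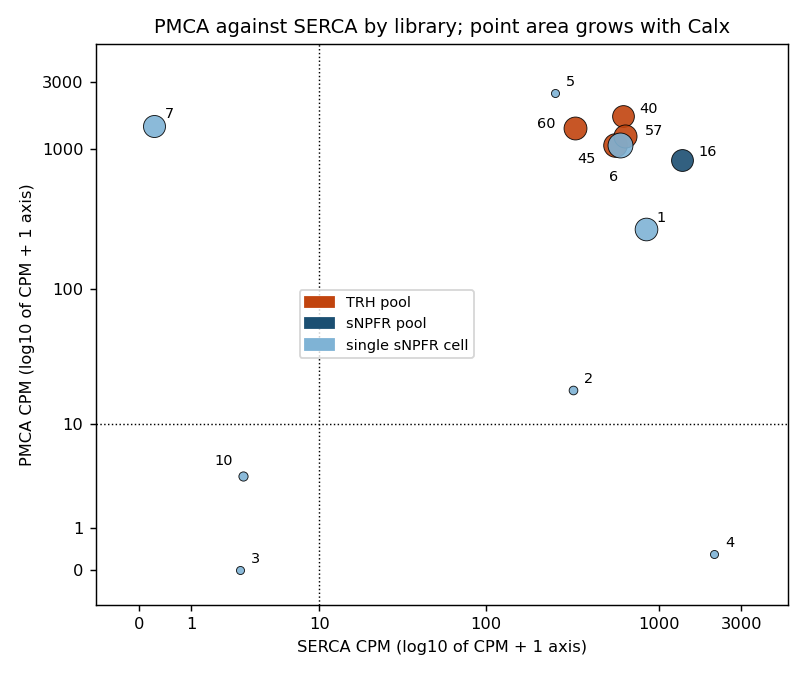
PMCA against SERCA in each library, in CPM on log10(CPM + 1) axes, with point area growing with the logarithm of Calx CPM and numbers naming pools and cells. TRH pools are red, the sNPFR pool dark blue and single cells light blue, and dotted lines mark 10 CPM. The 4 TRH pools lie close together, while SERCA is under 10 CPM in cell 7, PMCA in cell 4, and both in cells 3 and 10.

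The order of the 7 genes per kilobase was read in CPM per kilobase of exon, which is RPKM. In the TRH pools Atpalpha led with 1756 ± 252.5 RPKM, followed by nrv3 with 1032 ± 185.1, PMCA with 177.1 ± 35.6 and SERCA with 65.0 ± 17.5 (SD, n = 4). These 4 did not overlap between neighbours in any pool. nrv1 at 44.5 ± 30.1, Calx at 25.3 ± 9.26 and nrv2 at 22.8 ± 27.2 RPKM followed, and neither these 3 nor nrv1 and SERCA were apart by more than their spread. In the sNPFR pool the order was Atpalpha at 2677, nrv3 at 1105, SERCA at 164.4, PMCA at 109.4 and Calx at 14.1 RPKM, so SERCA stood above PMCA there and below it in all 4 TRH pools. For Atpalpha, nrv3, PMCA and SERCA the summed cells had the order of the TRH pools, with SERCA at 22.7 and PMCA at 135.9 RPKM. Below them came Calx at 14.3, nrv2 at 2.53 and nrv1 at 0 RPKM. The summed PMCA level leaned on cell 7, the source of 74.4% of those reads. By the median of the 8 cells the order turned, with SERCA at 34.7 and PMCA at 18.7 RPKM.

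Of 7 other genes listed as sodium/calcium exchangers, 4 were tested, 2 were higher in sNPFR and none was higher in TRH. Nckx30C, a potassium-dependent sodium/calcium exchanger, stood at 1568 ± 252.7 CPM in the TRH pools (SD, n = 4), against 2158 CPM in the sNPFR pool, while the summed cells had 3514 CPM (log2 fold change -1.44 ± 0.33, adjusted p = 0.0344, edgeR). CG1090, a gene of the same family, stood at 390.1 ± 91.8, 774.4 and 631.8 CPM (-1.37 ± 0.34, adjusted p = 0.0405, edgeR). These calls were lost in 8 and 7 of 23 alternative settings, among them library totals only (adjusted p = 0.0905 and 0.156, edgeR) and the omission of any 1 of the TRH pools. Nckx30C reached 10 CPM in all 8 cells, from 1268 CPM in cell 10 to 7048 CPM in cell 6, as did 86.5% of genes at 2000 CPM or more in the sNPFR pool. Cell 3, with no read of PMCA or Calx, held 3494 CPM of Nckx30C, near the cell median of 3613 CPM, and 2489 CPM of CG1090. Cell 10, also under 10 CPM for SERCA, PMCA and Calx, had the lowest level of both among the cells, at 1268 and 8.75 CPM.

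The lists beside the members held 62 genes of calcium handling, ion transport, septate junctions and reference genes, and 51 were tested. Of these 7.84% passed, against 13.6% of all tested genes: 1 was higher in TRH, and 3 were lower. Their median log2 fold change was -0.54, against 0.67 for all tested genes. Letm1, a cation exchanger of the inner mitochondrial membrane, was 1 of 6 mitochondrial calcium genes to pass, lower in TRH at 99.7 ± 41.5 CPM (SD, n = 4), against 372.5 CPM in the sNPFR pool, while the summed cells had 373.1 CPM (-2.43 ± 0.56, adjusted p = 0.0345, edgeR). Its cell reads came almost wholly from cells 6 and 10, and without cell 10 it did not pass (adjusted p = 0.119, edgeR). 8 of the 23 alternative settings ended its call, including library totals only (adjusted p = 0.0762, edgeR) and the omission of TRH pool 45, 60 or 57 (adjusted p of 0.084, 0.0789 and 0.105, edgeR). NKCC, a sodium, potassium and chloride cotransporter, was 1 of 7 tested cation-chloride and proton exchange genes to pass. The TRH pools had 31.7 ± 22.9 CPM (SD, n = 4), from 2.57 CPM in pool 57 to 58.1 CPM in pool 40, with 0 reads in every sNPFR library (adjusted p = 0.0357, edgeR), and the call was lost without any 1 of the TRH pools.

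No gene passed among 7 tested calcium store genes, 8 calcium binding and sensor genes, 9 septate junction genes, 9 reference genes or the 1 tested relative of the pump subunits. Calr, the calcium-binding chaperone calreticulin, led the store genes by mean level, at 686.9 ± 146.4 CPM in the TRH pools (SD, n = 4), against 628.7 CPM in the sNPFR pool, while the summed cells had 1365 CPM. Cam, calmodulin, led the binding genes and was steadier, at 3121 ± 381.5, 3902 and 3418 CPM (log2 fold change -0.73 ± 0.23, adjusted p = 0.0891, edgeR). Nrg, neuroglian, an adhesion molecule of septate junctions and axons, stood at 350.5 ± 196.1, 1175 and 53.2 CPM, so its sNPFR units lay on both sides of the TRH mean. Argk, arginine kinase, which buffers ATP, stood at 2631 ± 1098, 3621 and 7603 CPM (-1.66 ± 0.54, adjusted p = 0.0934, edgeR). Of the pump relatives, CG33310 was the most abundant and was held by 1 cell, cell 6, at 105.0 CPM. JYalpha, another alpha subunit gene, averaged 2.02 ± 4.05 CPM in the TRH pools and had 0 reads in every sNPFR library.

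**Figure D5:**
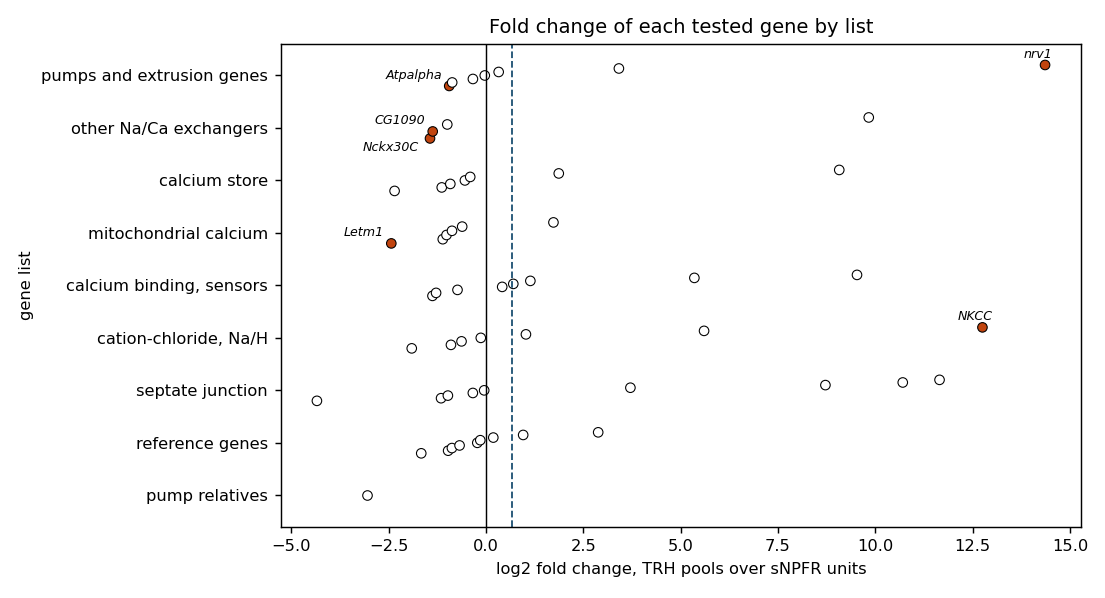
Log2 fold change of each tested gene, TRH pools over sNPFR units, by gene list, with genes that passed an adjusted p of 0.05 in red and named. The dashed line marks the median of all tested genes, 0.67. Among the lists drawn, only Letm1, Nckx30C, CG1090 and NKCC passed outside the 7 pump and extrusion genes, 3 of them left of 0. The cell type marker panels are not drawn, and in them futsch passed as lower in TRH and Pxn as higher.

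Genes with the most similar profiles over the 13 libraries were found among the 1936 genes that reached 10 CPM in 7 libraries or more, by Pearson r of log2(CPM + 1). The libraries share drivers, handling and cycle numbers, so these values are a description. Atpalpha was most like Hk, ATPsynE and Mgat2 (r = 0.960, 0.960 and 0.950). nrv3 was most like Ggamma1, CG2852 and CG13917 (0.927, 0.888 and 0.882), and Atpalpha was not among its 3 nearest. PMCA was most like CG1640, Tpi and svr (0.985, 0.957 and 0.957), and SERCA most like corto, CG40178 and tty (0.960, 0.927 and 0.902). Calx was most like ScsbetaA, Uhg5 and TM9SF2 (0.994, 0.988 and 0.983). nrv1 and nrv2 were at 10 CPM in too few libraries to be compared.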

How the data were processed

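Read counts per gene were deposited by the authors as whole numbers for 17737 genes. The submitters' processing notes name STAR, edgeR and BDGP6, with no version. How reads were assigned to genes, including the tool, annotation and use of strand, is not given in the sources used here. Another deposited table of scaled values was not used, as the counts cover the same libraries, and 1 column of per-sample values that matched no sample was not used.

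CPM was computed from column totals, and RPKM from merged exon lengths of Ensembl release 115, which matched 17599 genes. Differential tests used edgeR 4.0.16 in R 4.3.3, with its quasi-likelihood test, TMM scaling and the filterByExpr filter, on 4 TRH pools and 2 sNPFR units (4 residual degrees of freedom). Genes passed at a Benjamini-Hochberg adjusted p of 0.05. Alternatives used DESeq2 1.42.0, limma 3.58.1, other scalings and filters, and left-out libraries. Ratios and intervals came from scipy 1.17.1 under Python 3.11.15 (pandas 2.3.3, numpy 2.4.6), and plots from matplotlib 3.10.9. A gene counted as present at 10 CPM, and a count of 0 allows up to 3 reads. TRH pools differed by far more than sampling noise (chi-square per degree of freedom of 196.8 or more), so none was counted as a copy.

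The members and lists were chosen with earlier results of these data known. Of 107 list entries, 8 had no row of their own or named a gene already listed. Named genes were the 7 members; of each list, up to 4 called genes by smallest p, or the gene of highest mean level where none was called; the 3 most similar genes; and markers present in the pools. JYalpha, NimC1, CG32850 and the other genes named outside this rule were named after their values were seen. On simulated counts for 7026 genes, the test called 47 of 98 genes changed 64-fold, 12 of 100 changed 8-fold and 4 of 6828 unchanged genes. A difference can therefore exist in genes that did not pass.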

Additional observations from a re-analysis of the deposited data

Results flagged for a closer look

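A sample lying far from the others of its group was looked for in 17 sets of values, and 5 were found, all among the 8 single sNPFR cells. A chance rate of about 5% of sets holds only for normally distributed values. Levels in single cells, where most cells can lack any read of a gene such as nrv2, need not be normally distributed. The number found therefore cannot be set against that rate, and the flags for nrv2 and for the nrv3 share rest on the same reads.

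Calx stood at 691.3 CPM in cell 6, the highest of the 8 cells, and the next highest was cell 1 with 193.7 CPM. SERCA stood at 2096 CPM in cell 4, the cell with the fewest reads, and the next highest was cell 1 with 839.3 CPM. nrv2 stood at 129.7 CPM in cell 1 and had 0 reads in the other 7 cells. The nrv3 share of the summed nrv level was 92.97% in cell 1, the lowest of the 8, and it holds the same nrv2 reads, since the other 7 cells had nrv3 alone. The ratio of Atpalpha to the summed nrv genes per kilobase was 6.29 in cell 10, the highest of the 8. No other measurement of these cells was at hand, and the cause of each was not tested.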

How the results depend on the processing

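All values are log2 fold changes, TRH over sNPFR, or counts of genes called, with edgeR where no tool is named. No paired analysis was possible because the groups share no replicate numbers. Calx, the log2 ratio of Atpalpha to the summed nrv genes and the 3 nrv shares kept their direction in every alternative run for them. Calx passed in none of its alternatives. The ratio and the shares had no way to pass, so their p-values do not test steadiness. At 1 or 50 CPM the number of cells with the gene was unchanged for Atpalpha, nrv1, nrv2, nrv3 and Calx. It ran from 4 to 6 for PMCA and from 5 to 7 for SERCA. The count of all genes called, 1009, was 3039 with the DESeq2 Wald test, 2745 against the sNPFR pool alone and 2027 against the summed cells alone. It ran from 16 to 1226 with a library left out: 16 without TRH pool 57, 30 without pool 45 and 39 without pool 60. The count in the lists beside the members, 4, was 1 with DESeq2 size factors, 8 with singleton-pairing scaling, 2 with library totals only, 16 with the DESeq2 Wald test, 7 with limma-trend, 15 against the sNPFR pool alone, 14 against the summed cells alone and 0 to 6 with a library left out, where it was 0 without TRH pool 45, 60 or 57 and 1 without pool 40. Atpalpha no longer passed with DESeq2 size factors (-0.63, adjusted p = 0.0508), library totals only (-0.45), the DESeq2 Wald test (-0.63, adjusted p = 0.106), limma-voom (-0.76, adjusted p = 0.913), the sNPFR pool alone (-0.91, adjusted p = 0.122), the summed cells alone (-1.11, adjusted p = 0.0695) or cells at equal weight (-0.52, adjusted p = 0.178). It ran from -1.05 to -0.85 with a library left out. nrv1 passed in all alternatives but 3 and its fitted value ran from 13.97 to 14.80 with a library left out, a value that depends on the prior count. nrv2 passed against the sNPFR pool alone (13.45, adjusted p = 0.0258) and ran from 2.37 to 13.99 with a library left out, the upper end without cell 1. Both upper values also depend on the prior count, as the sNPFR libraries in those fits had 0 reads. nrv3 turned sign with library totals only (0.14) and with cells at equal weight (0.052), and ran from -0.44 to -0.20 with a library left out. SERCA turned sign with limma-voom (0.17) and against the summed cells alone (0.69), passed against the sNPFR pool alone (-1.64), and ran from -1.14 to -0.78 with a library left out. PMCA turned sign with DESeq2 size factors and the DESeq2 Wald test (0.33 in both), library totals only (0.53), no filter on low counts (0.0066), limma-trend (0.007), the sNPFR pool alone (0.37) and cells at equal weight (0.69), and ran from -0.19 to 0.47 with a library left out. The log2 ratio of PMCA plus Calx to SERCA, 0.52, was -1.05 against the summed cells alone and 0.27 to 1.46 with a library left out. Nrg turned sign with limma-voom (0.65) and against the summed cells alone (1.85), and CG33310 against the sNPFR pool alone (3.66). The cause of these changes was not tested.

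A fit with 1 sNPFR unit takes its spread from the TRH pools and assumes that the lone unit varies as they do. With 6 units the exact permutation test cannot give a p under 0.0667, so the ratios could not pass a threshold of 0.05 in any setting. Dissociated brains, pinned brains and the drivers cannot be told apart. The shallowest cell held 3.38 M reads and the cells held 784 to 1896 genes at 10 CPM or more. A count of 0 in a cell allows up to 3 reads and does not show that the gene is absent.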
